A study of Caenorhabditis elegans with 6 samples.

Results

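Transcript levels of 10 chaperone genes of Caenorhabditis elegans, a free-living nematode, were compared between animals given tryptophan and control animals. The genes were taken by sequence name from the 46589 identifiers of the deposited tables. The 4 cytosolic ones were hsp-1, hsp-90, hsp-110 and dnj-13, the 4 of the endoplasmic reticulum (ER) were hsp-3, hsp-4, enpl-1 and crt-1, and the 2 mitochondrial ones were hsp-6 and hsp-60. All 10 passed the expression filter of a mean of at least 1 FPKM (a read level scaled by transcript length and by library depth). The tryptophan group was 3 libraries of whole wild-type (WT) young adult hermaphrodites that received 5 mM tryptophan, an essential amino acid, over 36 h starting at L4, the last larval stage. The control group was 3 libraries of WT hermaphrodites of the same age without added tryptophan, and all animals were kept at 20 °C. The labels do not say whether replicates are separate cultures, so a p-value here covers only library-to-library spread, which may be technical.

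Chaperones are proteins that bind unfolded chains and help them reach or regain their shape. Each compartment of the cell has its own set, mostly built from the Hsp70 and Hsp90 families with helper proteins, and mitochondria also use a barrel-shaped chaperonin. In C. elegans the genes are read as stress reporters as well as housekeeping genes. The transcription factor HSF-1 raises the cytosolic set after heat, the IRE-1 and XBP-1 branch of the unfolded protein response raises hsp-4, and ATFS-1 raises hsp-6 and hsp-60 when mitochondria import proteins poorly.

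In short, no chaperone of any compartment passed the test for a difference with tryptophan. Of the 10 genes 0 were called by limma at an adjusted p of 0.05, as was so for 0% of the 13511 genes tested. At an unadjusted p of 0.05 it was 0 of 10, against 1.17% of all genes (158 genes). The median log2 fold change of the 10 was -0.23 and that of all genes tested -0.03, with 3 positive and 7 negative values. Only hsp-60 had every tryptophan library below every control library, 1 gene of 10, where 8.3% of all tested genes had groups that did not overlap in either direction, so that the count is close to that background. On the TPM scale it was 0 of 10, against 7.13%.

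Control library 1 and tryptophan library 1 stood apart from the other 4, with a correlation of 0.578 across genes between them. The summed level of 8 oocyte markers was 752 FPKM in tryptophan library 1, 5431 FPKM in control library 1 and 1037 to 1353 FPKM in the other 4. In the same order the sum of 8 sperm markers was 1691, 33.2 and 408 to 629 FPKM, and 2 of the sperm markers were listed at 0 in at least 1 library. Every marker listed for intestine, muscle, hypodermis and neurons was detected in every library. Among the marker sums, only that of 5 hypodermis markers did not overlap between groups. It was 969, 810.0 and 637 FPKM with tryptophan and 2409.5, 1015 and 1078 FPKM in control animals. The nearest values were 969 and 1015 FPKM, and 8.3% of all tested genes had groups that did not overlap. The sum of 5 muscle markers was 430.5 FPKM in tryptophan library 1 and 1247 to 2256 FPKM in the other 5 libraries, and that of 6 yolk protein genes ran from 406 FPKM in tryptophan library 1 to 19564 FPKM in control library 1. In whole animals, fewer cells of a type and less RNA per cell cannot be told apart.

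The other feature was transcript length. Among protein-coding genes with a single annotated transcript, the median difference of tryptophan library 1 from the mean of tryptophan libraries 2 and 3 was 1.61 on the log2 scale for 1359 transcripts of at most 600 bp and -1.41 for 650 transcripts over 2700 bp. Control library 1 ran the other way against control libraries 2 and 3, at -0.40 and 0.77 for the same lengths. Tryptophan against control in libraries 2 and 3 alone also ran with length, at -0.33 and 0.36. The chaperone transcripts span 1398 to 2702 bp by their longest annotated form, so each is set below beside genes of its own length. The part of germline, hypodermis or muscle content or of length in any result was not tested, beyond the fits with a length correction given below.

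**Figure D1:**
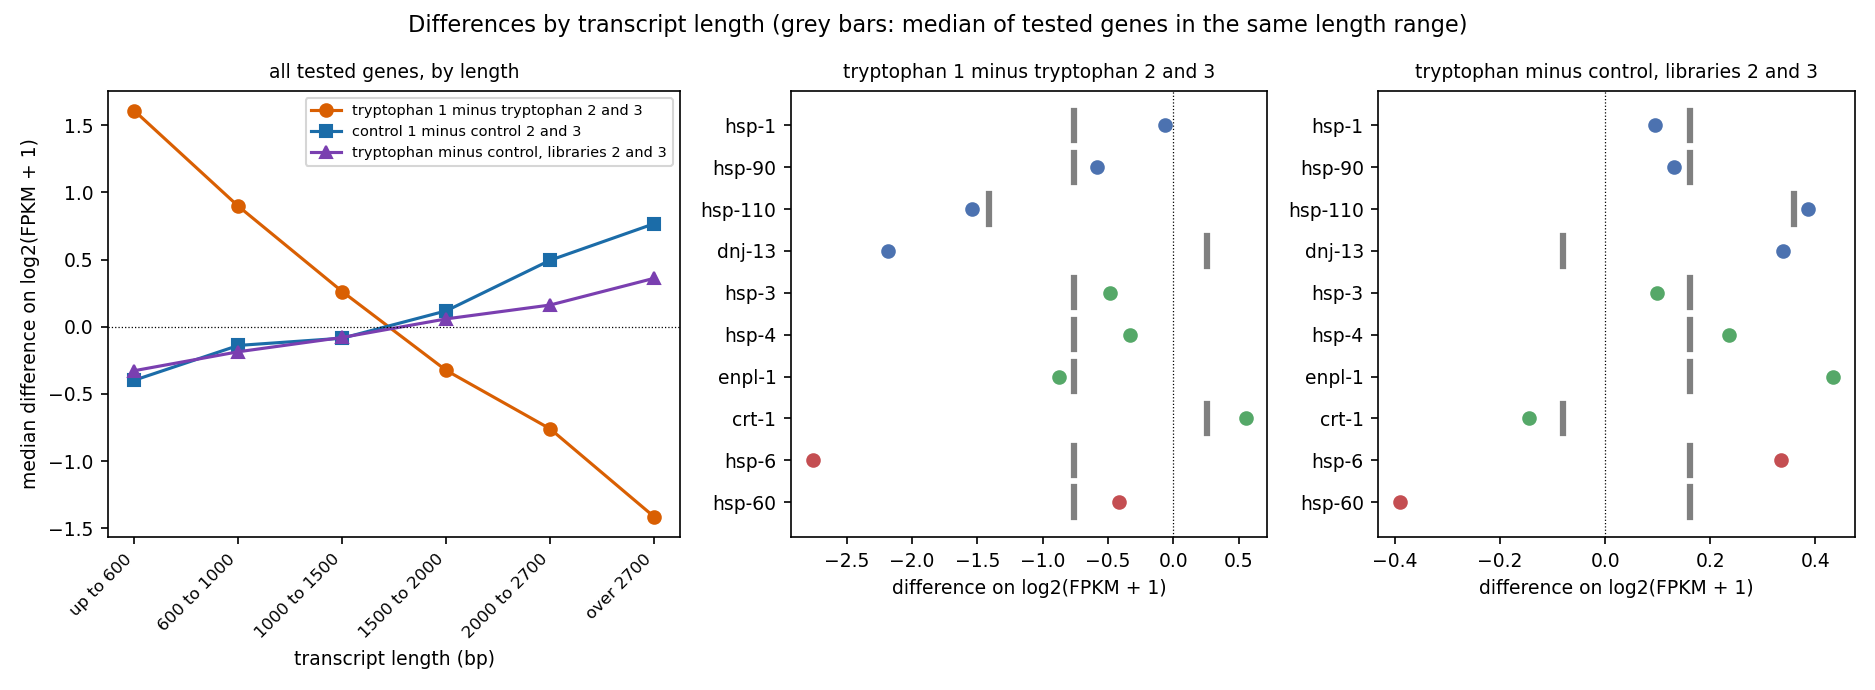
Left, median difference on log2(FPKM + 1) in 6 ranges of transcript length for tryptophan library 1, for control library 1 and for tryptophan against control in libraries 2 and 3. Middle and right, the same differences per chaperone gene (points, blue cytosol, green ER, red mitochondria) with the median of tested genes in the same length range (grey bars). In tryptophan library 1, dnj-13 and hsp-6 lie far below the genes of their length. In libraries 2 and 3 hsp-60, placed by its longest form, lies below its own.

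All levels were far above the detection floor. The lowest value of any chaperone was 47.7 FPKM, that of hsp-6 in tryptophan library 1, or about 2019 counted units. Libraries held an estimated 17.2 to 24.5 counted units (in units of 1e6) in the tryptophan group and 14.4 to 20.85 in the control group, from the steps between low values. Counting error was therefore small beside the spread between libraries.

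In the cytosol, hsp-1 and hsp-90 were the most abundant chaperones per length, and both were highest in control library 1. hsp-1 (F26D10.3, chromosome IV, 17278959 to 17281330, + strand) encodes the constitutive Hsp70, which holds newly made and unfolded chains. It stood at 1951, 2536 and 1632 FPKM in tryptophan libraries 1 to 3 and at 3870.2, 2069 and 1755 FPKM in control libraries 1 to 3. Control library 1 was the highest and tryptophan library 3 the lowest, and the groups overlapped. For hsp-1 the log2 fold change was -0.27 (SE 0.41, 95% interval -1.23 to 0.70, limma adjusted p = 0.846), and 0.07 without control library 1. hsp-1 ranked between 33 and 93 among 19521 protein-coding genes in the tryptophan libraries and between 27 and 89 in the control libraries.

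hsp-90 (C47E8.5, chromosome V, 14684918 to 14688545, + strand) encodes the cytosolic Hsp90, which completes the folding of kinases and receptors. It had 1209, 1893 and 1735 FPKM with tryptophan and 2679, 1778 and 1539 FPKM in control animals. Control library 1 was the highest, tryptophan library 1 was the lowest, and the other 4 values lay between them. The means were 1612 ± 358 FPKM with tryptophan and 1999 ± 601 FPKM in control animals (SD, n = 3 each), with a difference of -0.29 on the log2 scale (SE 0.37, 95% interval -1.17 to 0.58, limma adjusted p = 0.821). Without control library 1 it was -0.063, and without tryptophan library 1 -0.10. Its start overlaps C47E8.4 on the opposite strand by 568 bp, and that gene stood at 31.6 to 69.0 FPKM. No source used here says whether counting used strand, so reads of such overlaps cannot be told apart.

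hsp-110 (C30C11.4, chromosome III, 8443910 to 8446909, - strand) encodes an Hsp70 relative that drives nucleotide exchange on Hsp70. Its values were 157, 434 and 484 FPKM with tryptophan and 410.0, 460.5 and 267 FPKM in control animals. Tryptophan library 1 was low and tryptophan library 3 was the highest of all 6. Its log2 fold change was -0.20 (SE 0.51, 95% interval -1.41 to 1.00, limma adjusted p = 0.914), and 0.31 without tryptophan library 1. In that library hsp-110 differed from tryptophan libraries 2 and 3 by -1.54 on the log2 scale. Its transcript of 2702 bp lies at an edge of the length ranges, where the median was -1.41 for transcripts over 2700 bp and -0.76 for those of 2000 to 2700 bp.

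dnj-13 (F54D5.8, chromosome II, 11545701 to 11547360, + strand) encodes a J-domain protein that hands clients to Hsp70 and works with HSP-1 and HSP-110 on aggregates. It had 61.3, 276 and 289 FPKM with tryptophan and 320.02, 267 and 186 FPKM in control animals. Only tryptophan library 1 was out of the range of the others, and it differed from tryptophan libraries 2 and 3 by -2.19 on the log2 scale. Of 2143 genes with transcripts of 1000 to 1500 bp, whose median difference there was 0.26, 1.63% lay lower. For dnj-13 the log2 fold change was -0.56 (SE 0.64, 95% interval -2.06 to 0.94, limma adjusted p = 0.810), and 0.17 without that library.

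**Figure D2:**
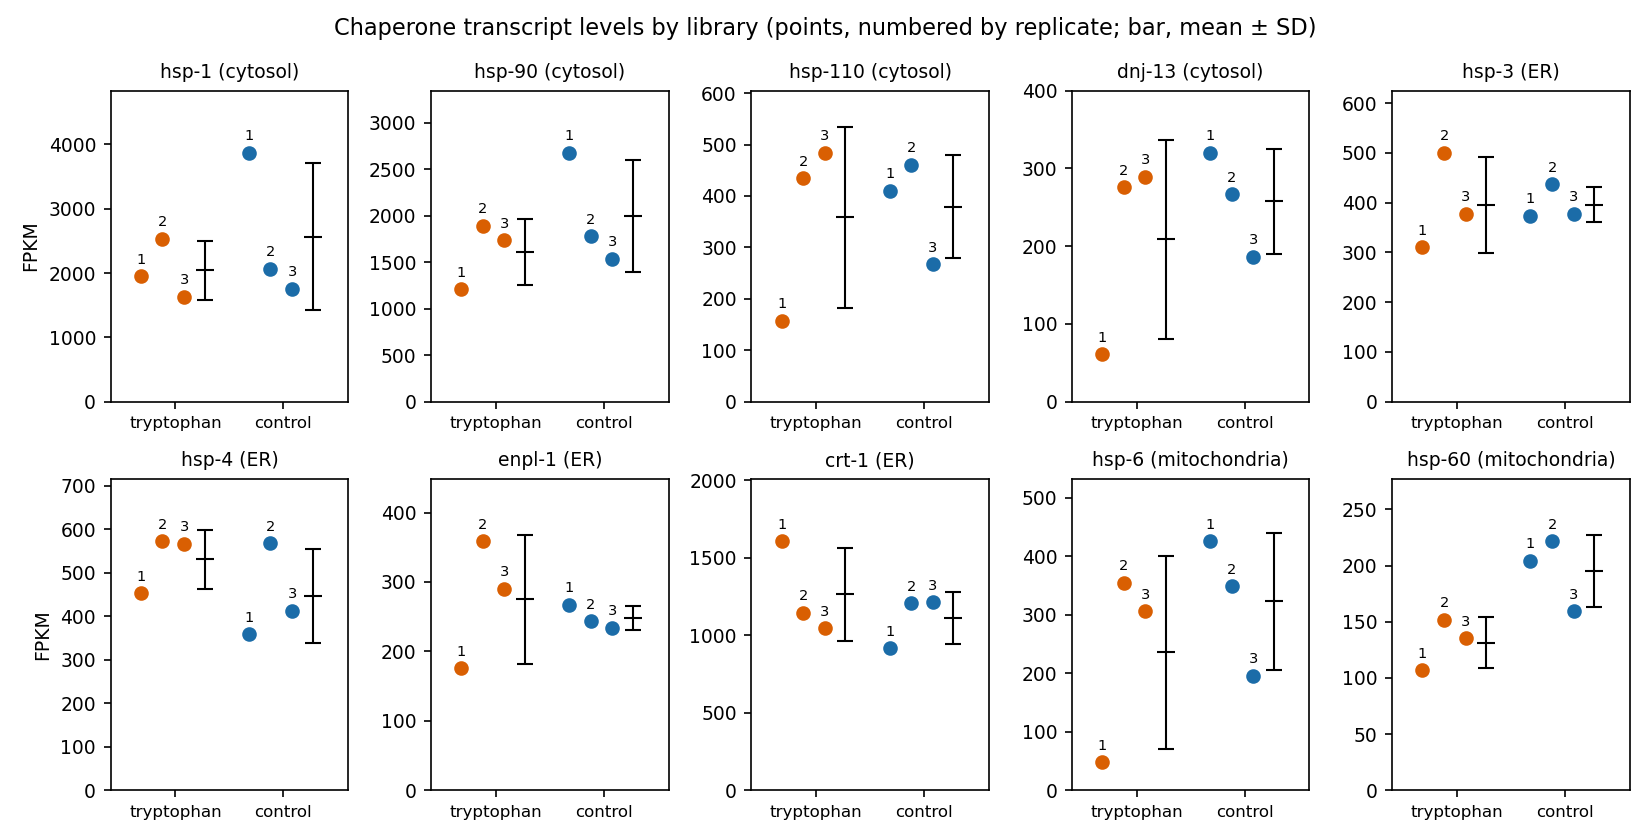
FPKM of each chaperone gene in the 3 tryptophan libraries (orange) and the 3 control libraries (blue), numbered by replicate, with the mean and SD beside them, on axes that start at 0. The groups overlap in every panel but that of hsp-60, and tryptophan library 1 is the lowest point for 7 of the 10 genes.

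The ER chaperones had ranges over the 6 libraries of 1.595-fold (hsp-4) to 2.04-fold (enpl-1), against 2.22-fold (hsp-90) to 5.22-fold (dnj-13) in the cytosol and 2.08-fold (hsp-60) to 8.91-fold (hsp-6) in mitochondria. hsp-3 and hsp-4 are close paralogs that both encode the ER Hsp70 (BiP in mammals), so how reads were divided between them is uncertain. hsp-4 (F43E2.8, chromosome II, 7350112 to 7352645, - strand) is the usual reporter of the ER unfolded protein response and had 452, 572 and 567 FPKM with tryptophan and 359, 567 and 412 FPKM in control animals. Tryptophan libraries 2 and 3 and control library 2 were level, with the other control libraries lower. The means were 531 ± 67.7 FPKM with tryptophan and 446 ± 108 FPKM in control animals (SD, n = 3 each). hsp-4 had a log2 fold change of 0.27 (SE 0.34, 95% interval -0.53 to 1.07, limma adjusted p = 0.821). That value was positive in each of 21 alternatives, at 0.08 to 0.51, although some of them, such as the replicate block, cannot change it.

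hsp-3 (C15H9.6, chromosome X, 6089028 to 6092124, - strand), the more constitutive paralog, had 310.1, 500.4 and 378 FPKM with tryptophan and 374, 437 and 377 FPKM in control animals. The tryptophan libraries enclosed the control libraries on both sides. The means were 396 ± 96.5 FPKM with tryptophan and 396 ± 35.5 FPKM in control animals (SD, n = 3 each), and the log2 fold change was -0.02 (SE 0.34, 95% interval -0.82 to 0.77). The ratio of hsp-4 to hsp-3, in which any scaling of a library cancels, was 1.459, 1.144 and 1.502 with tryptophan and 0.959, 1.30 and 1.09 in control libraries 1 to 3. The groups overlapped in that ratio too.

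enpl-1 (T05E11.3, chromosome IV, 11119298 to 11123155, + strand) encodes endoplasmin, the ER Hsp90. It had 176, 359 and 290.1 FPKM with tryptophan and 267, 243 and 234 FPKM in control animals. Tryptophan libraries 2 and 3 were above and tryptophan library 1 below all control libraries, whose SD was only 16.9 FPKM against 92.4 FPKM with tryptophan. For enpl-1 the log2 fold change was 0.09 (SE 0.38, 95% interval -0.80 to 0.98, limma adjusted p = 0.952), and -0.13 without tryptophan library 2.

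crt-1 (Y38A10A.5, chromosome V, 6098992 to 6100542, - strand) encodes calreticulin, a calcium-binding chaperone of glycoproteins and the most abundant ER member. Values were 1605, 1144 and 1044.5 FPKM with tryptophan and 917, 1207 and 1210.5 FPKM in control animals. It was the only chaperone that was highest of all 6 libraries in tryptophan library 1. It was also lowest in control library 1, the reverse of hsp-1 and hsp-90 there. Neither place of crt-1 was extreme among 2143 genes with transcripts of 1000 to 1500 bp. In the difference of tryptophan library 1 from the other tryptophan libraries, 64.5% of them lay lower. In that of control library 1 from the other control libraries, 43.02% lay lower. Among 712 genes of 2000 to 2700 bp, 72.3% lay below hsp-1 and 58.6% below hsp-90 in that control difference. For crt-1 the log2 fold change was 0.17 (SE 0.34, 95% interval -0.62 to 0.97, limma adjusted p = 0.881), and -0.01 without tryptophan library 1. Ends of enpl-1 and crt-1 overlap spo-11 (23 bp) and smut-1 (92 bp) on the opposite strand, which had at most 29.6 and 45.3 FPKM.

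The mitochondrial pair behaved unlike each other. hsp-6 (C37H5.8, chromosome V, 4824124 to 4826760, - strand) encodes the mitochondrial Hsp70, which pulls proteins in through the inner membrane and folds them. It stood at 47.7, 355 and 306 FPKM with tryptophan and at 425, 349 and 195 FPKM in control animals. Tryptophan library 1 was far below the rest, so that hsp-6 had the widest range of the 10 genes, 8.91-fold from lowest to highest. That library differed from tryptophan libraries 2 and 3 by -2.76 on the log2 scale, where the median of 712 genes with transcripts of 2000 to 2700 bp was -0.76 and 5.76% of them lay lower. The log2 fold change was -0.82 (SE 0.78, 95% interval -2.66 to 1.02, limma adjusted p = 0.802), and 0.10 without it.

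hsp-60 (Y22D7AL.5, chromosome III, 1619742 to 1625803, + strand) encodes the mitochondrial chaperonin, in whose chamber imported proteins fold. It had 107, 151.5 and 135 FPKM with tryptophan and 204, 222 and 159 FPKM in control animals. Each tryptophan library lay below each control library, with 151.5 and 159 FPKM as the nearest values. The means were 131 ± 22.7 FPKM with tryptophan and 195 ± 32.2 FPKM in control animals (SD, n = 3 each). The log2 fold change was -0.57 (SE 0.34, 95% interval -1.37 to 0.23), with an unadjusted p of 0.138 and an adjusted p of 0.802 in limma. Rescaled to TPM, where every library has the same sum, hsp-60 had 95.7, 212 and 222 with tryptophan and 201, 302 and 193 in control animals, and the groups overlapped. An exact permutation test of 3 against 3 libraries cannot go below p = 0.1.

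hsp-60 and hsp-6 are used together as reporters of the mitochondrial unfolded protein response, so their ratio was also read. The ratio of hsp-60 to hsp-6 was 2.24, 0.427 and 0.442 with tryptophan and 0.480, 0.636 and 0.815 in control animals. Tryptophan library 1 was above and tryptophan libraries 2 and 3 below all control libraries. Over all 45 pairs of the 10 chaperones, the ratio within a library did not overlap between groups for 3 pairs, which are hsp-60 with hsp-3, with hsp-4 and with enpl-1. Among all pairs of 12376 tested protein-coding genes above 0 in every library, 9.05% did not overlap, against 6.67% here, so that the count is no result about the chaperones. For hsp-60 over enpl-1 the values were 0.607, 0.422 and 0.466 with tryptophan and 0.765, 0.912 and 0.680 in control animals.

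A comparison within libraries 2 and 3 of each group, chosen after seeing the data, had narrower errors. The median residual SD over all genes was 0.20 on the log2 scale there and 0.64 in all 6 libraries. Of the 10 chaperones 0 were called, against 0.503% of all genes (68 genes), and 0 had an unadjusted p under 0.05, against 14% of all genes. Signs turned for 7 of the 10 relative to all 6 libraries, with 8 positive and 2 negative values and a median of 0.18 (median of all genes -0.02). The largest was that of enpl-1, at 0.43 (SE 0.21, 95% interval -0.04 to 0.91, limma adjusted p = 0.396). hsp-60 kept its sign at -0.39 (SE 0.23, 95% interval -0.91 to 0.13, limma adjusted p = 0.470). hsp-6 was at 0.33 (SE 0.29) and hsp-4 at 0.24 (SE 0.23). Rescaled to TPM, the 4 libraries gave 1 of 10 at an unadjusted p under 0.05, against 16.7% of all genes, and 0 of 10 called, against 0.128%. That gene was enpl-1, at 0.67 (SE 0.16, limma adjusted p = 0.236), where the median of all genes was 0.19. Over all alternatives the adjusted p ran from 0.236 to 1 for enpl-1 and from 0.342 to 1 for hsp-60.

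Set beside genes of like length, by longest form, in those 4 libraries, hsp-60 was low and enpl-1 and dnj-13 were high. Of the 712 genes of 2000 to 2700 bp, whose median was 0.16, 1.12% had a lower log2 fold change than hsp-60. hsp-60 has 4 annotated transcripts of 789 to 2121 bp, so its place, and its length correction below, rest on the longest. Genes of 600 to 1000 bp had a median of -0.19. For enpl-1 89.9% of the genes of the same length lay lower. For dnj-13 93.3% of genes of 1000 to 1500 bp lay lower, for hsp-110 85.4% of genes of 2000 to 2700 bp but 53.4% of those over 2700 bp, and for hsp-1 38.2% of genes of 2000 to 2700 bp. With a spline on transcript length taken off each library, the log2 fold change of hsp-60 in libraries 2 and 3 was -0.53 (SE 0.19), with an unadjusted p of 0.0202 and an adjusted p of 0.342 in limma. That fit, also chosen after seeing the data, called 0 of the 10 chaperones and 0.971% of all genes, and hsp-60 was the 1 chaperone with an unadjusted p under 0.05, against 10.9% of all genes.

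**Figure D3:**
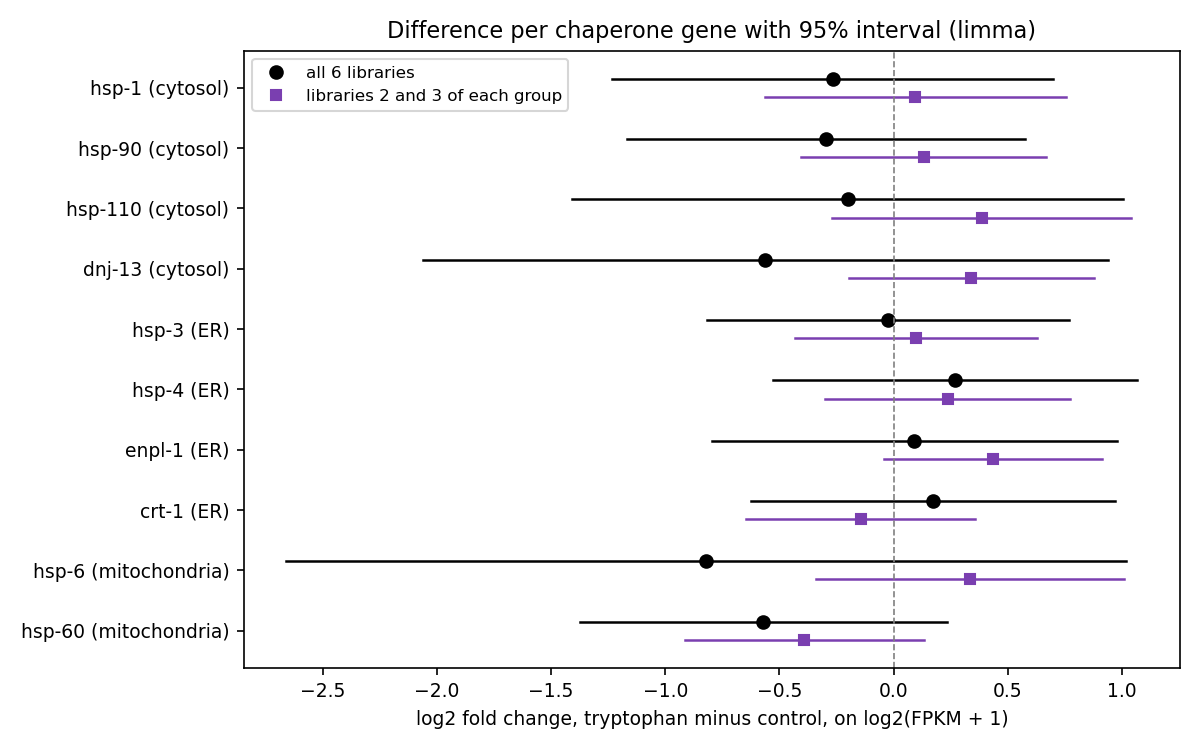
Log2 fold change of each chaperone gene, tryptophan minus control on log2(FPKM + 1), with its 95% interval, in all 6 libraries (black circles) and in libraries 2 and 3 of each group (purple squares). Every interval crosses 0, and the intervals of hsp-6 and dnj-13 are the widest over all 6 libraries.

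The compartments were compared by the summed FPKM of their members in each library, as a description. The cytosolic sum was 3378, 5139 and 4140 FPKM with tryptophan and 7279, 4574 and 3748 FPKM in control animals. The ER sum was 2544, 2575 and 2279 FPKM with tryptophan and 1916, 2454 and 2234 FPKM in control animals. The mitochondrial sum was 154, 506 and 441 FPKM with tryptophan and 629, 570.2 and 354 FPKM in control animals. In each compartment the groups overlapped. The mean log2 fold change of the members was -0.33 in the cytosol, 0.13 in the ER and -0.69 in mitochondria, and in libraries 2 and 3 it was 0.24, 0.16 and -0.03. Leaving out 1 library moved it to between -0.55 (without tryptophan library 2) and 0.03 (without tryptophan library 1) in the cytosol, 0.03 and 0.22 in the ER (the same libraries) and -1.01 and -0.16 in mitochondria (the same libraries). Without control library 1 it was -0.13 in the cytosol and 0.061 in the ER, and without control library 3 or tryptophan library 3 it was -0.54 and -0.48 in the cytosol. The ER mean was 0.20 without control library 2.

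As shares of all 10 chaperones within a library, which do not depend on scaling, the cytosolic and ER shares were alike in the 4 libraries numbered 2 and 3 and differed in library 1 of each group. Cytosolic chaperones made up 55.6%, 62.5% and 60.4% with tryptophan and 74.1%, 60.2% and 59.1% in control libraries 1 to 3. ER chaperones made up 41.9%, 31.3% and 33.2% with tryptophan and 19.5%, 32.3% and 35.3% in control animals. Control library 1 had the highest cytosolic and the lowest ER share. These sums and shares mainly follow the most abundant genes, hsp-1 and hsp-90 in the cytosol and crt-1 in the ER. crt-1 gave 1605 of 2544 FPKM of the ER sum in tryptophan library 1 and 917 of 1916 FPKM in control library 1. Of the other ER genes, hsp-3 and enpl-1 were lowest in tryptophan library 1, and only hsp-4 was lowest in control library 1. Mitochondrial chaperones made up 2.54%, 6.16% and 6.42% with tryptophan and 6.41%, 7.503% and 5.59% in control animals. The 10 genes together held 0.545% to 1.148% of a tryptophan library's summed FPKM and 0.768% to 1.04% of a control library's.

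**Figure D4:**
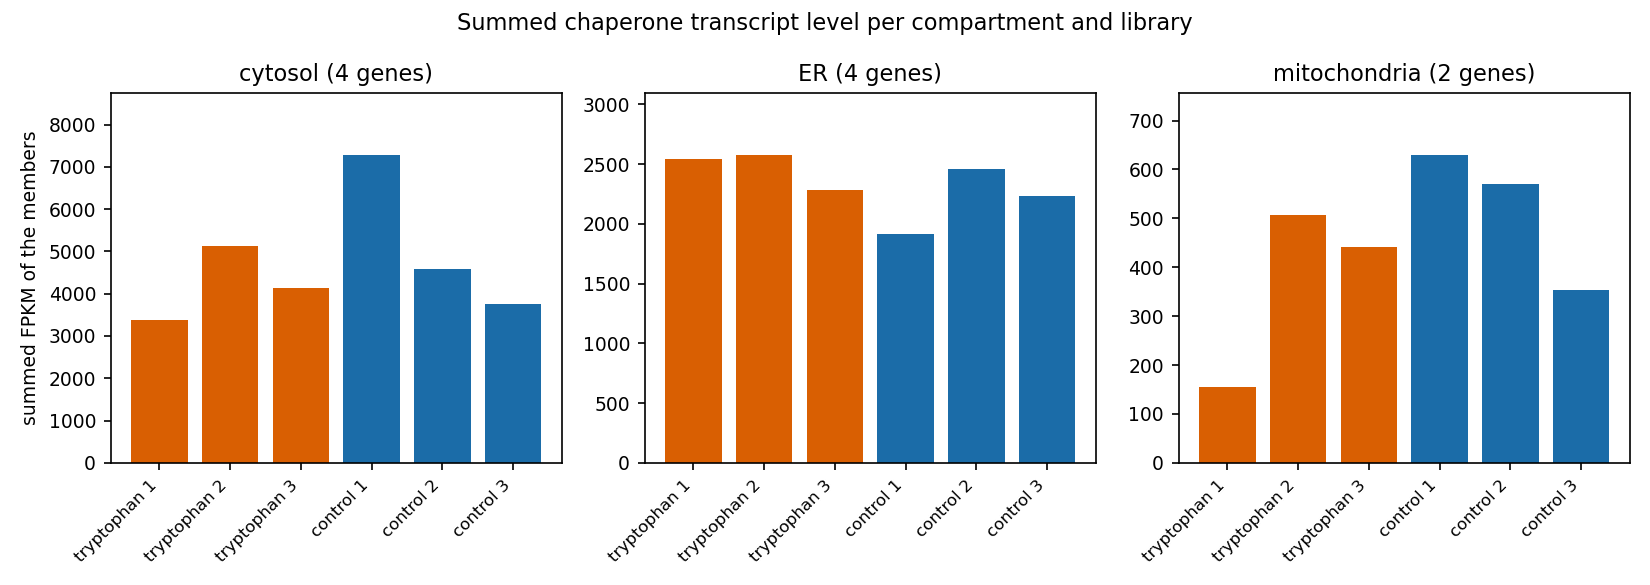
Summed FPKM of the chaperones of each compartment in the 3 tryptophan libraries (orange) and the 3 control libraries (blue), on axes that start at 0 and differ between panels. Control library 1 has the highest cytosolic sum at 7279 FPKM and the lowest ER sum, and tryptophan library 1 has the lowest mitochondrial sum at 154 FPKM. hsp-1 and hsp-90 are the largest parts of each cytosolic sum, and crt-1 is the largest part of each ER sum.

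The order of levels per length was alike in the groups. With tryptophan the means ran from hsp-1 (2039.8 FPKM) over hsp-90, crt-1, hsp-4, hsp-3, hsp-110, enpl-1, hsp-6 and dnj-13 down to hsp-60 (131 FPKM). In control animals the order was hsp-1 (2565 FPKM), hsp-90, crt-1, hsp-4, hsp-3, hsp-110, hsp-6, dnj-13, enpl-1 and hsp-60 (195 FPKM). Of the 9 neighbouring pairs the ranges over libraries overlapped for 8 with tryptophan, where only crt-1 and hsp-4 were separate. In control animals they overlapped for 6, and hsp-90 and crt-1, crt-1 and hsp-4, and enpl-1 and hsp-60 were separate. hsp-1 was above hsp-90 in 5 of 6 libraries, and hsp-110 above its partner dnj-13 in 6 of 6. Over the 4 libraries numbered 2 and 3 the range of each gene was narrow, from 1.16-fold for crt-1 to 1.82-fold for hsp-6.

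Genes that work with these chaperones were read from 11 lists, of which 99 of 105 genes matched a row and were tested. Of the 99 genes 0 were called in all 6 libraries, against 0% of all genes, with 29 log2 fold changes positive and 70 negative, where 47.7% of all genes were positive. In 8 genes (8.08%) every tryptophan library lay below every control library, against 4.32% of all genes, and in 0 above, against 3.98%. On the TPM scale 4 lay below, against 2.46% of all genes, and 1 above, F44E5.4. There 7.13% of all genes had groups that did not overlap in either direction. These counts describe the lists and were not tested as sets.

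Among helpers of cytosolic Hsp90 and Hsp70, 5 of 14 had every tryptophan library below every control library, against 4.32% of all genes. Their median log2 fold change was -0.49, with 1 positive and 13 negative values and 0 called. sti-1, which bridges Hsp70 and Hsp90, had 207, 199 and 165 FPKM with tryptophan and 337, 246 and 239.97 FPKM in control animals. cdc-37, which brings kinases to Hsp90, had 56.7, 70.2 and 57.0 FPKM with tryptophan and 132, 95.6 and 78.1 FPKM in control animals. hip-1, which holds Hsp70 in its client-bound state, had 188, 139 and 109 FPKM with tryptophan and 262, 248 and 227 FPKM in control animals.

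For these 3 helpers every tryptophan library was below every control library, as also for the J-domain gene dnj-19 and the immunophilin gene fkb-6. The log2 fold changes of sti-1, cdc-37, hip-1 and dnj-19 were -0.52 (SE 0.33), -0.70 (SE 0.36), -0.78 (SE 0.35) and -0.84 (SE 0.42), each with a limma adjusted p of 0.802. On the TPM scale 3 of the 14 did not overlap, sti-1, hip-1 and ahsa-1, an activator of the Hsp90 ATPase, where 2.46% of all genes lay below. In libraries 2 and 3 the largest difference of the 4 was that of hip-1, at -0.94 (SE 0.21, limma adjusted p = 0.133). The ratio of cdc-37 to hsp-90, free of library scaling, was 0.0469, 0.0371 and 0.0329 with tryptophan and 0.0493, 0.0538 and 0.0508 in control animals. The groups did not overlap in that ratio, as for 9.05% of all gene pairs. They did overlap in the ratio of sti-1 to hsp-90 and in that of hip-1 to hsp-1.

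The 8 subunits of the CCT chaperonin, which folds actin and tubulin, had a median log2 fold change of -0.52 over all libraries and -0.02 in libraries 2 and 3. cct-3 had 19.6, 186 and 148 FPKM with tryptophan and 292, 181 and 133 FPKM in control animals, and cct-7 had a log2 fold change of -0.63 (SE 0.44). Prefoldin, 6 short transcripts whose products deliver chains to CCT, had a median of 0.04 over all libraries and -0.42 in libraries 2 and 3. pfd-1 had 495, 60.2 and 47.9 FPKM with tryptophan and 92.1, 64.2 and 93.3 FPKM in control animals, and pfd-6 had a log2 fold change of -0.38 (SE 0.55). Tryptophan library 1 was thus the lowest of 6 for cct-3 and the highest for pfd-1.

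hsf-1, which encodes the heat shock factor itself, had 6.84, 23.2 and 18.1 FPKM with tryptophan and 61.1, 20.5 and 17.6 FPKM in control animals. It had its lowest value in tryptophan library 1 and its highest in control library 1, and its log2 fold change was -0.93 (SE 0.65, limma adjusted p = 0.802). ddl-2, of the complex that restrains HSF-1, was at -1.27 (SE 0.69). Among 12 inducible and small heat shock genes 9 were positive and 0 were called, with a median of 0.64. In libraries 2 and 3 the same genes had 6 positive and 6 negative values and a median of 0.03. F44E5.4 and F44E5.5 had like values in every library, as had hsp-16.2 and hsp-16.41, so the 12 values are not independent. hsp-70, the inducible Hsp70, had 154, 259.6 and 341 FPKM with tryptophan and 104.03, 267 and 156 FPKM in control animals. hsp-16.2 was at 0.93 (SE 0.69) and F44E5.4 at 1.23 (SE 0.67). sip-1 encodes a small Hsp and had 628, 555 and 336 FPKM with tryptophan and 2202, 794 and 953 FPKM in control animals. Its difference was -1.27 on the log2 scale (SE 0.49, limma adjusted p = 0.802). It was the 1 gene of these 12 with every tryptophan library below every control library, as was so for 4.32% of all genes.

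In the ER, the 15 folding genes had a median log2 fold change of -0.02 and 7 positive and 8 negative values. The nearest to the threshold by p were uggt-2, of the glucosyltransferases that test glycoprotein folding, at 0.75 (SE 0.42), and T14G8.3 at 0.60 (SE 0.46). stc-1, of the Hsp70 family, was at -0.29 (SE 0.38). xbp-1, whose spliced mRNA encodes the factor that raises hsp-4, had 194, 195 and 234 FPKM with tryptophan and 168, 264 and 208 FPKM in control animals. The groups overlapped widely and the log2 fold change was -0.02 (SE 0.34). The stress sensors ire-1, pek-1 and atf-6 had -0.32 (SE 0.53), 0.07 (SE 0.82) and -0.32 (SE 0.63). pek-1, the ER kinase that slows translation, had 3.59, 31.4 and 34.3 FPKM with tryptophan and 14.9, 22.6 and 11.2 FPKM in control animals, lowest in tryptophan library 1 and highest in tryptophan libraries 2 and 3. The xbp-1 value counts all forms of its mRNA, so it does not report splicing.

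Genes of ER-associated degradation, which extracts misfolded proteins for the proteasome, had 0 positive and 10 negative values over all libraries (median -0.52) and 5 of each in libraries 2 and 3 (median 0.01). png-1, which removes glycans from extracted proteins, had 13.3, 14.1 and 13.8 FPKM with tryptophan and 26.3, 18.9 and 17.8 FPKM in control animals. npl-4.1, a cofactor of the extraction ATPase CDC-48, had 31.9, 13.4 and 9.53 FPKM with tryptophan and 27.3, 24.3 and 26.3 FPKM in control animals. Its groups overlapped through tryptophan library 1. With the length correction in libraries 2 and 3 it was the 1 gene of the 99 that was called, at -1.14 with a limma adjusted p of 0.0234. The share of all genes called there was 0.971%, so that the count is no result about the lists. Without the correction npl-4.1 had a limma adjusted p of 0.115 in those libraries, and 0 of the 99 were called. Over all 6 libraries npl-4.1 was at -0.66 (SE 0.51, limma adjusted p = 0.802). Its paralog npl-4.2 makes the division of reads between them uncertain.

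Mitochondrial partner genes also had 0 calls. The 13 folding and import genes had a median log2 fold change of -0.25, with 4 positive and 9 negative values. timm-17B.1, of the inner membrane translocase, had 69.0, 95.03 and 104.9 FPKM with tryptophan and 184, 128 and 105.4 FPKM in control animals, the only gene of the 13 whose groups did not overlap, where 8.3% of all genes did not. Its nearest values lay within 1 FPKM of each other, and the groups overlapped on the TPM scale. tomm-20, an outer membrane import receptor, was at -0.52 (SE 0.36). R151.7 (hsp-75 in the annotation), a mitochondrial Hsp90 relative, was at -0.08 (SE 0.35) and Y22D7AL.10 at -0.17 (SE 0.43). Among the proteases ymel-1 and spg-7, of the inner membrane, were at -0.69 (SE 0.44) and -0.37 (SE 0.40).

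atfs-1, which encodes the factor that raises hsp-6 and hsp-60, had 18.1, 47.6 and 42.3 FPKM with tryptophan and 82.4, 42.96 and 35.3 FPKM in control animals. Like hsf-1 it was lowest in tryptophan library 1 and highest in control library 1, and differed by -0.58 on the log2 scale (SE 0.53, limma adjusted p = 0.802). All 8 regulators of the mitochondrial response had negative values over all libraries (median -0.33), and 6 of 8 had positive ones in libraries 2 and 3 (median 0.13). Those with the smallest p were lin-65 at -0.73 (SE 0.55) and the histone demethylase gene jmjd-1.2 at -0.61 (SE 0.49).

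**Figure D5:**
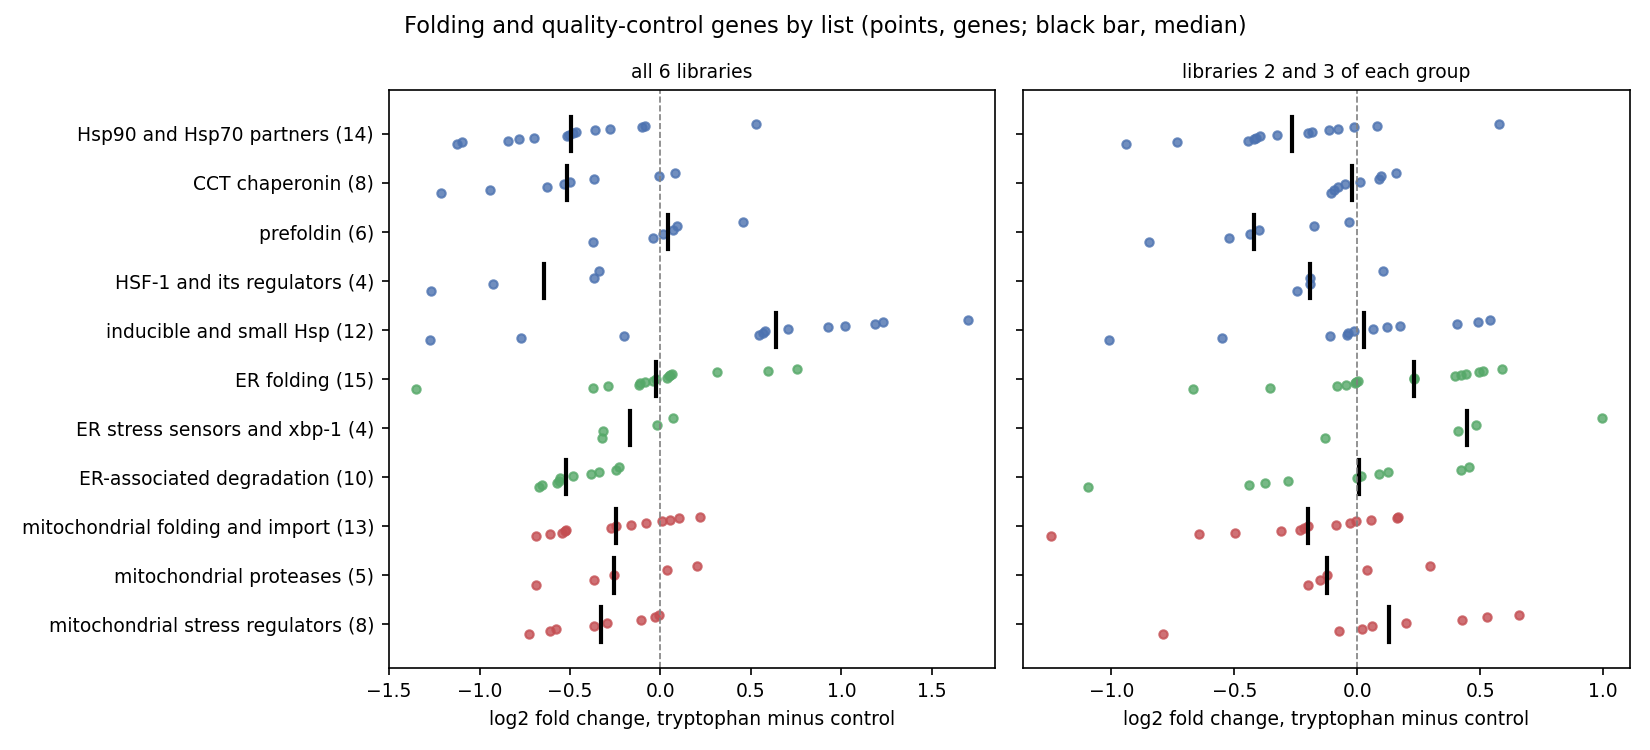
Log2 fold change, tryptophan minus control on log2(FPKM + 1), of each tested gene (points) in 11 lists of folding and quality-control genes, with the list median (black bar) and the number of genes in brackets, over all 6 libraries (left) and in libraries 2 and 3 of each group (right). Points are blue for cytosolic, green for ER and red for mitochondrial lists. The median of the Hsp90 and Hsp70 partners is negative in both panels, at -0.49 and -0.26, while those of the ER-associated degradation and mitochondrial regulator lists move to 0.01 and 0.13.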

How the data were processed

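RNA-seq of whole animals gave 1 table of FPKM per library, which the authors deposited (per the file headers). The submitters' processing notes name Bowtie 0.12.2, StringTie and the build WBcel235. No source used here gives the annotation release, filters, strandedness or scaling. Of 46589 identifiers 46183 matched the WBcel235 annotation (Ensembl release 115), the source of positions (1-based) and transcript lengths.

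The analysis used log2(FPKM + 1), which understates differences of weakly expressed genes. Those averaging at least 1 FPKM (13511) entered a two-sided limma 3.58.1 fit of group (R 4.3.3, statmod 1.5.0; eBayes with trend). Benjamini-Hochberg adjustment ran over all of them, with a threshold of 0.05. The code was tested on simulated data with the residual SDs of libraries 2 and 3 of each group. That does not show what the fit of all 6 libraries could detect. Counts were not rebuilt: 73.7% to 76.6% of low values (12496 genes) fell within 0.2 of a whole step, and these steps gave the depth estimates. Transcript length corrections subtracted a spline on length from each library. Sums, ratios and plots used Python 3.11.15 (numpy 2.4.6, pandas 2.3.3, matplotlib 3.10.9).

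Members, gene lists and tests were chosen with earlier results of these data known. Named genes were the 10 members, the 2 smallest p of each list and 14 fixed genes. fkb-6, ahsa-1 and npl-4.2 were added after their values were seen. No sequences were used here.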

Additional observations from a re-analysis of the deposited data

How the results depend on the processing

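In 21 alternatives, 5 of them chosen after seeing the data, 0 of the 10 chaperones were called by limma, and the adjusted p ran from 0.236 to 1. hsp-4 and hsp-60 kept their sign in all 21. The eBayes settings, the filters and the replicate block leave a member's log2 fold change as it is, so those alternatives could not turn a sign. Of the 210 member values of all 10 chaperones 37 turned sign, all of them among the 8 other than hsp-4 and hsp-60. Over all genes 0 were called with all 6 libraries, but 68 in libraries 2 and 3, 96 there with median rescaling, 18 with TPM and 130 with length correction. In libraries 2 and 3 the log2 fold changes that turned were 0.094 for hsp-1, 0.13 for hsp-90, 0.39 for hsp-110, 0.34 for dnj-13, 0.10 for hsp-3, -0.15 for crt-1 and 0.33 for hsp-6. With median rescaling these were 0.072, 0.11, 0.36, 0.32, 0.076, -0.17 and 0.31 in the same order. With TPM hsp-1 was at 0.33, hsp-90 at 0.37, hsp-110 at 0.62, dnj-13 at 0.58, hsp-3 at 0.33 and hsp-6 at 0.57, with compartment means of 0.47 in the cytosol, 0.39 in the ER and 0.21 in mitochondria. With length correction hsp-110 was at 0.14, dnj-13 at 0.37, crt-1 at -0.11 and hsp-6 at 0.13. In all 6 libraries hsp-3 was at 0.019 with median rescaling, 0.13 with quantile normalization, 0.088 with TPM and 0.27 with length correction, where hsp-110 was at 0.10. The ER mean was 0.33 with quantile normalization and 0.33 with length correction. The cause of these turns was not tested.

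Leaving out each library in turn gave -0.50 to 0.074 for hsp-1, -0.46 to -0.063 for hsp-90, 0.13 to 0.46 for hsp-4, -0.50 to 0.31 for hsp-110, -0.94 to 0.17 for dnj-13, -0.21 to 0.14 for hsp-3, -0.13 to 0.38 for enpl-1, -0.012 to 0.30 for crt-1 and -1.33 to 0.10 for hsp-6. Deviations of same-numbered libraries correlated at -0.37, -0.30 and -0.34. These values cannot decide whether replicate numbers mark pairs, because control library 1 and tryptophan library 1 stood far apart. The labels do not say whether they mark a shared culture. With a replicate block 0 genes were called and 77 had an unadjusted p under 0.05, against 158 without it. Without the filter on low values limma met residual variances of 0, so its p-values are unreliable. hsp-60, with a difference of -0.57 and an SE of 0.34 on the log2 scale, had an adjusted p of 0.802 in limma and was not called. The size of difference that could have been detected was not computed. Every chaperone was far above 0, and whether depth limited the calls was not tested.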
